A study of Mus musculus with 12 samples.

Results

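The genes described here are the chemokines and their receptors, taken from the deposited count table by name. A row was a ligand if its symbol was Ccl, Cxcl, Cx3cl or Xcl with a number and an optional letter, and a receptor if it was Ccr, Cxcr, Cx3cr, Xcr or Ackr with a number. The rule found 67 of 21930 rows, of which 45 were ligand rows and 22 were receptors. Of the ligand rows, 7 lay on unplaced scaffolds and held 0 counts in all libraries, so that 38 ligands on chromosomes remained, 24 of the CC family, 12 of the CXC family, 1 CX3C and 1 XC. The receptors comprised 10 Ccr, 6 Cxcr, Cx3cr1, Xcr1 and 4 atypical receptors (Ackr). Many of these genes lie in clusters: 12 of the 38 ligands were on chromosome 11 and 10 on chromosome 5, and 13 of the 22 receptors were on chromosome 9.

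The 12 libraries came from male wild-type C57BL/6J mice, 8 weeks old at the start, that were fed ad libitum (AL) or on alternate days (intermittent fasting, IF) for 12 weeks. They then received 1 intraperitoneal injection of sodium iodate (NaIO3) at 25 mg/kg, an oxidant that damages the retinal pigment epithelium (RPE), or of phosphate-buffered saline (PBS). Eye-cup tissue labelled as the RPE, choroid and sclera complex was taken 7 days after injection, with the diets continued, and the groups AL + PBS, IF + PBS, AL + NaIO3 and IF + NaIO3 had 3 libraries each. NaIO3 was given to the whole animal and is not specific to 1 cell type, and the tissue was sequenced in bulk, so that fewer cells of a type and less RNA per cell cannot be told apart.

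Chemokines are small secreted proteins that guide leukocytes along concentration gradients by binding G protein-coupled receptors on their surface. The CC ligands mainly draw monocytes, macrophages, T cells and eosinophils, the CXC ligands draw neutrophils or lymphocytes depending on their receptor, and the CX3C ligand acts on microglia. Atypical receptors bind chemokines without the usual G protein signal and so take them up, carry them across endothelium or clear them. In the eye, microglia, infiltrating macrophages, vascular cells, Müller glia and the RPE are all known sources of chemokines.

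Total counts per library ran from 26364665 to 43046950, with a median of 31822705. At these depths 3 counts, used as the floor below which no level was read, stood for 0.0697 to 0.1138 CPM, that is, counts scaled to the size of the library. The defining RPE markers were detected in all libraries, but the summed photoreceptor markers (20500 to 56000 CPM) exceeded the summed RPE markers (741 to 3030 CPM) in each of the 12 libraries, so that the tissue also held neural retina. AL + NaIO3 replicate 3 stood apart: its stroma markers summed to 1460 CPM against 65.0 to 201 CPM in the other libraries, its photoreceptor markers were the lowest and its RPE markers the highest. AL + NaIO3 replicate 2 held 473 CPM of cornea and conjunctiva markers, against 4.85 to 80.3 CPM elsewhere. Where a fold change given below for a gene moved by more than 1.5 times without replicate 3, the value without it follows.

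Most chemokine genes were sparse in this tissue. Of the 38 ligands, Ccl20, Ccl26, Cxcl3 and Cxcl15 had 0 counts in all libraries and Ccl1 had at most 3. Of the 22 receptors, Ccr3, Ccr8 and Cxcr1 had 0 counts throughout and Ccr4 had at most 2. The number of ligands above 3 counts in at least 1 library of a group was 26 in AL + PBS, 26 in IF + PBS, 33 in AL + NaIO3 and 27 in IF + NaIO3. For receptors the numbers were 16, 17, 18 and 14. For a gene at or under the floor these depths give only an upper bound, and do not show that it was absent.

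On the deposited FPKM scale (fragments per kilobase of transcript, scaled to library depth, which allows levels to be compared between genes), 3 ligands made up most of the ligand signal. Ccl27a, the mouse counterpart of a T cell-attracting chemokine of epithelia, had a mean of 33.7 FPKM over the 12 libraries and 30.4% of the summed ligand FPKM. Cxcl14, a constitutively expressed chemokine of epithelia, followed with 28.4 FPKM (25.6%), and Cx3cl1, the membrane-bound ligand of the microglial receptor Cx3cr1, with 20.3 FPKM (18.3%). The library values of Ccl27a and Cxcl14, neighbours in this order, overlapped. Ccl25, which acts on Ccr9, had a mean of 7.23 FPKM, and Cxcl12, the ligand of Cxcr4 and Ackr3, 5.85 FPKM. Among the receptors Ackr1 alone, which carries chemokines across venular endothelium, accounted for 88.5% of the summed receptor FPKM with a mean of 66.9. It was followed by Ackr3 at 1.96, Ccr9 at 1.64, Cx3cr1 at 1.34 and Cxcr4 at 1.16 FPKM. Ackr1 overlaps the adhesion gene Cadm3 (33.4 to 83.3 FPKM), Ccl27a overlaps Il11ra1 (up to 29.4 FPKM) and Ccl25 overlaps Elavl1 (11.5 to 15.1 FPKM). Because the use of strand in counting is not given in the sources used here, reads of each pair may not have been separated, and the levels of these 3 members are uncertain.

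**Figure D1:**
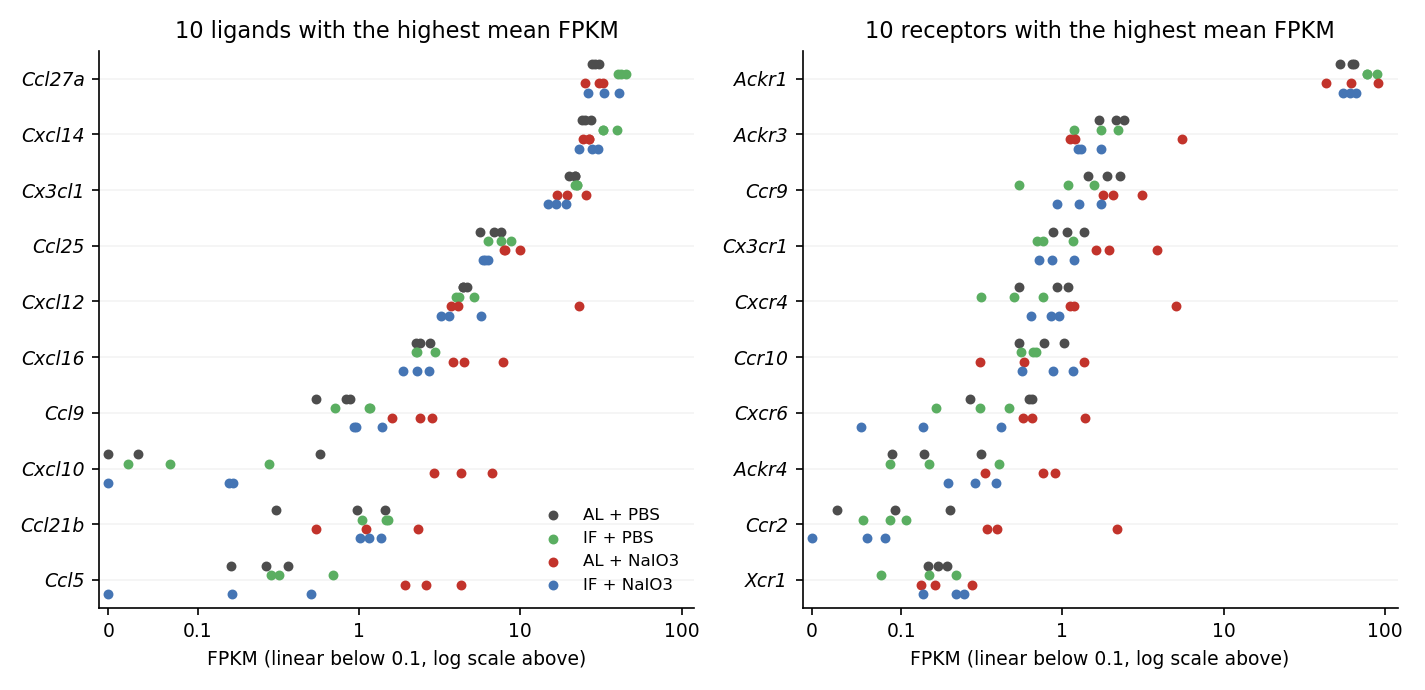
Deposited FPKM of chemokine ligands and receptors by library, with points for the 3 libraries of each group. Ccl27a, Cxcl14 and Cx3cl1 lead the ligands, and Ackr1, at a mean of 66.9 FPKM, lies far above Ackr3 at 1.96 FPKM.

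The first question was which of these genes differed between NaIO3 and PBS in mice fed ad libitum. The monocyte attractants Ccl2 and Ccl7, the ligands Ccl3, Ccl5 and Ccl9 of the myeloid receptor Ccr1, the Cxcr3 ligand Cxcl10, the Cxcr6 ligand Cxcl16 and the receptors Ccr2 and Cx3cr1 had all 3 AL + NaIO3 libraries above all 3 AL + PBS libraries, an order held by 8.97% of all genes, though none of them passed the edgeR test. The second question was whether fasted mice given NaIO3 differed from ad libitum mice given NaIO3, and the genes just named had all 3 IF + NaIO3 libraries below all 3 AL + NaIO3 libraries, as did 10.7% of all genes, again without passing the edgeR test. They were named after their values were seen: Cxcl1, Cxcl13 and Ackr4 stood higher in AL + NaIO3 than in AL + PBS without standing apart from IF + NaIO3. Both comparisons use the same 3 AL + NaIO3 libraries, so that their values are given side by side and 1 does not support the other. Each comparison was fitted to its own 6 libraries by quasi-likelihood in edgeR with Benjamini-Hochberg adjustment over every gene tested, and a call needed an adjusted p below 0.05 and a fold change of at least 1.5.

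By that test no chemokine gene was called in AL + NaIO3 against AL + PBS, among 22 ligands and 12 receptors that passed the count filter, where 0.0769% of all genes tested were called. At an unadjusted p under 0.05 there were 7 ligands and 4 receptors, against 10.2% of all genes tested. In IF + NaIO3 against AL + NaIO3 the same test called 0 of 24 ligands and 0 of 12 receptors against 0.0383% of all genes, with 8 ligands and 6 receptors at an unadjusted p under 0.05 (11.7% of all genes). Some sparse genes passed the count filter only through the AL + NaIO3 libraries, where they were high. Setting these counts at an unadjusted p beside the shares of all genes therefore supports nothing. DESeq2 on the same libraries called 5 of 33 ligands (Ccl2, Ccl3, Ccl5, Ccl9 and Cxcl16) and 4 of 19 receptors (Ccr2, Ccr7 and Cx3cr1 among them), all higher in AL + NaIO3, where it called 2.46% of all genes. For IF + NaIO3 against AL + NaIO3 DESeq2 called 6 of 33 ligands (Ccl2, Ccl3, Ccl5, Ccl7, Cxcl10 and Cxcl16) and 4 of 17 receptors (Ccr2, Ccr7 and Cx3cr1 among them), all lower in IF + NaIO3, against 2.94% of all genes. An edgeR fit over all 12 libraries called 3 of 26 ligands (Ccl2, Ccl9 and Cxcl16) and 0 of 13 receptors in the first comparison, against 1.11% of all genes, and 0 of 26 ligands and 1 of 13 receptors in the second, against 1.19%. The outcome for single chemokine genes therefore depended on the tool and on which libraries were fitted together, and the values in each library are given below.

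Without a filter, 12 of the 38 ligands and 6 of the 22 receptors had all 3 AL + NaIO3 libraries above all 3 AL + PBS libraries in CPM, as did 8.97% of all genes. Ccl17, which attracts T cells through Ccr4, alone of the 60 had the opposite order, found in 3.55% of all genes. For IF + NaIO3 against AL + NaIO3, 13 ligands and 7 receptors had all IF + NaIO3 libraries below all AL + NaIO3 libraries (10.7% of all genes) and 0 had them above (3.11% of all genes). The mean CPM was higher in AL + NaIO3 than in AL + PBS for 31 of 38 ligands and 16 of 22 receptors, against 54.5% of all genes, and lower for 3 and 3, against 29.4%. With TMM scaling the split over all genes moved to 44.7% higher and 39.2% lower, while the ligands gave 30 higher and 4 lower and the receptors 16 and 3. In IF + NaIO3 the mean was lower than in AL + NaIO3 for 29 ligands and 16 receptors (56.7% of all genes) and higher for 5 and 3 (27.4%). TMM scaling gave 29 and 15 lower with 44.4% of all genes, and 5 and 4 higher with 39.7%. Without AL + NaIO3 replicate 3 the mean was higher in AL + NaIO3 than in AL + PBS for 27 ligands and 13 receptors (46.4% of all genes) and lower for 6 and 6 (36.6%). In IF + NaIO3 it was then lower than in AL + NaIO3 for 25 and 14 (51.3%) and higher for 8 and 4 (31.8%).

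**Figure D2:**
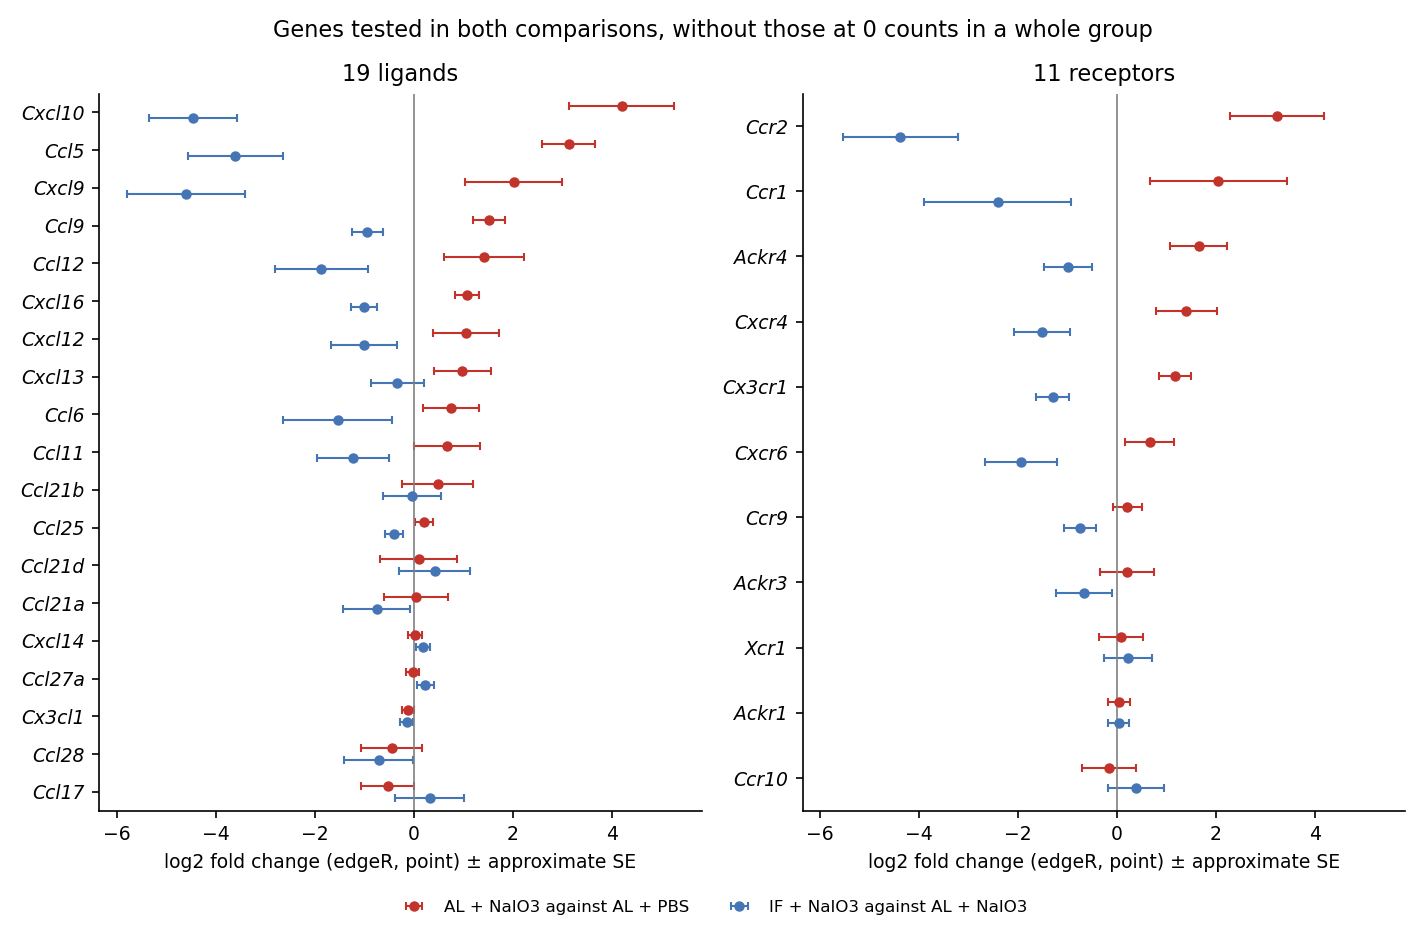
Log2 fold change from edgeR with its standard error for 19 ligands and 11 receptors of those tested in both comparisons and not at 0 counts in a whole group, AL + NaIO3 against AL + PBS and IF + NaIO3 against AL + NaIO3. Cxcl10, at 4.20 and -4.46, is an example of a gene that lies on opposite sides of 0 in the 2 comparisons, which share the AL + NaIO3 libraries. Some genes passed the count filter only through those libraries, so that the number of points on a side supports nothing.

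Ccl2, Ccl7, Ccl12 and Ccl8 bind Ccr2 or its relatives and draw monocytes, and they lie together on chromosome 11 (Ccl2 at chr11:82035571-82037453 and Ccl7 at chr11:82045712-82047525 in GRCm38). Ccl2, the main monocyte attractant, had 0, 0 and 0 counts in AL + PBS, 0, 0 and 2 in IF + PBS, 66, 21 and 107 in AL + NaIO3 and 5, 0 and 0 in IF + NaIO3. Every AL + NaIO3 library lay above every other library. Against AL + PBS, where all libraries were at 0, the level in AL + NaIO3 was at least 23.0-fold higher, taking 3 counts per library as the floor, with an edgeR adjusted p of 0.120 and a DESeq2 adjusted p of 9.3e-07. IF + NaIO3 was under the floor on average, with 5 counts in 1 library, and the ratio of pooled counts was 43.9 (95% exact interval 18.5 to 137), or 30.8 (12.7 to 97.1) without AL + NaIO3 replicate 3, with an edgeR adjusted p of 0.191 and a DESeq2 adjusted p of 0.000293. Ccl2 overlaps the predicted gene Gm17268.

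Ccl7, a monocyte attractant next to Ccl2, had 0, 0 and 5 counts in AL + PBS, 0, 3 and 0 in IF + PBS, 14, 11 and 39 in AL + NaIO3 and 0, 0 and 0 in IF + NaIO3. The AL + NaIO3 libraries were again above all others. The edgeR log2 fold change against AL + PBS was 3.57 (SE 1.16, adjusted p = 0.350), or 2.98 without AL + NaIO3 replicate 3 and 2.9 without AL + PBS replicate 2. All 5 AL + PBS counts were in replicate 3 of that group, which was under the floor on average, so that the fold rests on that library. Without it AL + PBS was at 0 counts, and the fitted value of 7.44 is not read as an exact fold. With all libraries DESeq2 did not call Ccl7 against AL + PBS. The level was at least 7.71-fold higher than in IF + NaIO3 (edgeR adjusted p = 0.188, DESeq2 adjusted p = 0.00476). Without AL + NaIO3 replicate 3 it was at least 4.84-fold higher. Ccl12, a mouse ligand of Ccr2, had 25, 7 and 3 counts in AL + PBS, 0, 10 and 1 in IF + PBS, 42, 23 and 25 in AL + NaIO3 and 10, 17 and 0 in IF + NaIO3. Its AL + NaIO3 libraries overlapped those of AL + PBS and not those of IF + NaIO3, with edgeR log2 fold changes of 1.42 (SE 0.80, adjusted p = 0.580) and -1.87 (SE 0.94, adjusted p = 0.483). Ccl8 had at most 25 counts and overlapped between all groups. Ccl11, the eosinophil attractant eotaxin, had 4 to 45 counts. Its AL + NaIO3 libraries overlapped those of AL + PBS but lay above those of IF + NaIO3 in CPM, an order held by 10.7% of all genes. The mean CPM was 2.56-fold higher than in IF + NaIO3, or 1.58-fold without AL + NaIO3 replicate 3.

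Ccl3, Ccl4, Ccl5, Ccl9 and Ccl6 form another stretch of chromosome 11, and they draw macrophages, monocytes or T cells. Ccl3, also known as macrophage inflammatory protein 1-alpha, had 0, 0 and 0 counts in AL + PBS, 3, 0 and 0 in IF + PBS, 26, 9 and 32 in AL + NaIO3 and 0, 0 and 0 in IF + NaIO3. It was thus read above the floor only in the 3 AL + NaIO3 libraries. The level was at least 8.01-fold higher than in AL + PBS (edgeR adjusted p = 0.183, DESeq2 adjusted p = 0.0022) and at least 8.02-fold higher than in IF + NaIO3 (edgeR adjusted p = 0.178, DESeq2 adjusted p = 0.00306). Its neighbour Ccl4 had 0, 0 and 2 counts in AL + PBS, 0, 5 and 8 in IF + PBS, 3, 8 and 35 in AL + NaIO3 and 0, 0 and 2 in IF + NaIO3. The ratio of pooled counts was 26.3 (95% exact interval 6.87 to 223) over AL + PBS, and the interval over IF + NaIO3 was 6.81 to 221. Without AL + NaIO3 replicate 3 the ratios were 9.82 (2.14 to 91.1) and 9.73 (2.12 to 90.3). These intervals cover counting error only. They treat the counts as independent, and are too narrow if both reads of a pair were counted.

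Ccl5, a T cell and monocyte attractant also called RANTES, had 7, 11 and 4 counts in AL + PBS, 7, 7 and 15 in IF + PBS, 57, 34 and 92 in AL + NaIO3 and 4, 0 and 10 in IF + NaIO3. The AL + NaIO3 libraries lay above the 9 others. In edgeR its log2 fold change was 3.13 (SE 0.53, adjusted p = 0.123) against AL + PBS, and that of IF + NaIO3 against AL + NaIO3 was -3.61 (SE 0.96, adjusted p = 0.253), or -3.0 without IF + NaIO3 replicate 2 and -4.93 without IF + NaIO3 replicate 3. With all libraries DESeq2 gave adjusted p-values of 0.000269 and 0.00807. Ccl9, a myeloid attractant acting through Ccr1, was more abundant, with 62, 138 and 93 counts in AL + PBS, 132, 131 and 82 in IF + PBS, 289, 154 and 336 in AL + NaIO3 and 127, 133 and 150 in IF + NaIO3. The groups did not overlap on the CPM scale in either comparison. Its edgeR log2 fold changes were 1.52 (SE 0.33, adjusted p = 0.242) and -0.94 (SE 0.31, adjusted p = 0.338), and its adjusted p against AL + PBS was 0.00176 in DESeq2. DESeq2 did not call Ccl9 in IF + NaIO3 against AL + NaIO3. Ccl6, a macrophage-derived relative of Ccl9, had 27, 83 and 178 counts in the AL + NaIO3 libraries and overlapped the other groups.

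The ligands of Cxcr3, Cxcl9 and Cxcl10, are induced by interferons and draw activated T cells and natural killer cells, and they are neighbours on chromosome 5 (Cxcl10 at chr5:92346638-92348889). Cxcl10 had 0, 36 and 3 counts in AL + PBS, 17, 6 and 2 in IF + PBS, 298, 108 and 191 in AL + NaIO3 and 12, 17 and 0 in IF + NaIO3. Every AL + NaIO3 library lay above the 9 others, while the PBS libraries varied widely among themselves. In edgeR its log2 fold change was 4.20 (SE 1.06, adjusted p = 0.266) against AL + PBS and -4.46 (SE 0.88, adjusted p = 0.168) for IF + NaIO3 against AL + NaIO3, and DESeq2 gave adjusted p-values of 0.113 and 6.47e-08. Most AL + PBS counts were in replicate 2, and without it the first fold change was 6.88, while the second was -5.07 without IF + NaIO3 replicate 2. Cxcl10 lies within the span of Art3, which had 3.88, 1.66 and 10.1 FPKM in the 3 AL + NaIO3 libraries, so that reads of the pair may not have been separated. Cxcl9 had 0, 7 and 8 counts in AL + PBS, 5, 4 and 5 in IF + PBS, 34, 10 and 12 in AL + NaIO3 and 0, 0 and 2 in IF + NaIO3. The log2 fold change against AL + PBS was 2.02 (SE 0.98, edgeR adjusted p = 0.532), and 1.22 without AL + NaIO3 replicate 1 or 2.69 without AL + PBS replicate 3, and its pooled ratio over IF + NaIO3 was 31.7 (95% exact interval 8.37 to 268).

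Cxcl16, a membrane-bound chemokine of macrophages and endothelium and the ligand of Cxcr6, had 192, 339 and 221 counts in AL + PBS, 214, 294 and 232 in IF + PBS, 392, 376 and 711 in AL + NaIO3 and 257, 336 and 171 in IF + NaIO3. The AL + NaIO3 libraries were above the other groups on the CPM scale. The edgeR log2 fold changes were 1.08 (SE 0.24, adjusted p = 0.242) and -1.01 (SE 0.26, adjusted p = 0.247), and DESeq2 gave adjusted p-values of 0.00317 and 0.0204. Cxcl16 overlaps Zmynd15, which was low (0.179 to 0.901 FPKM).

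**Figure D3:**
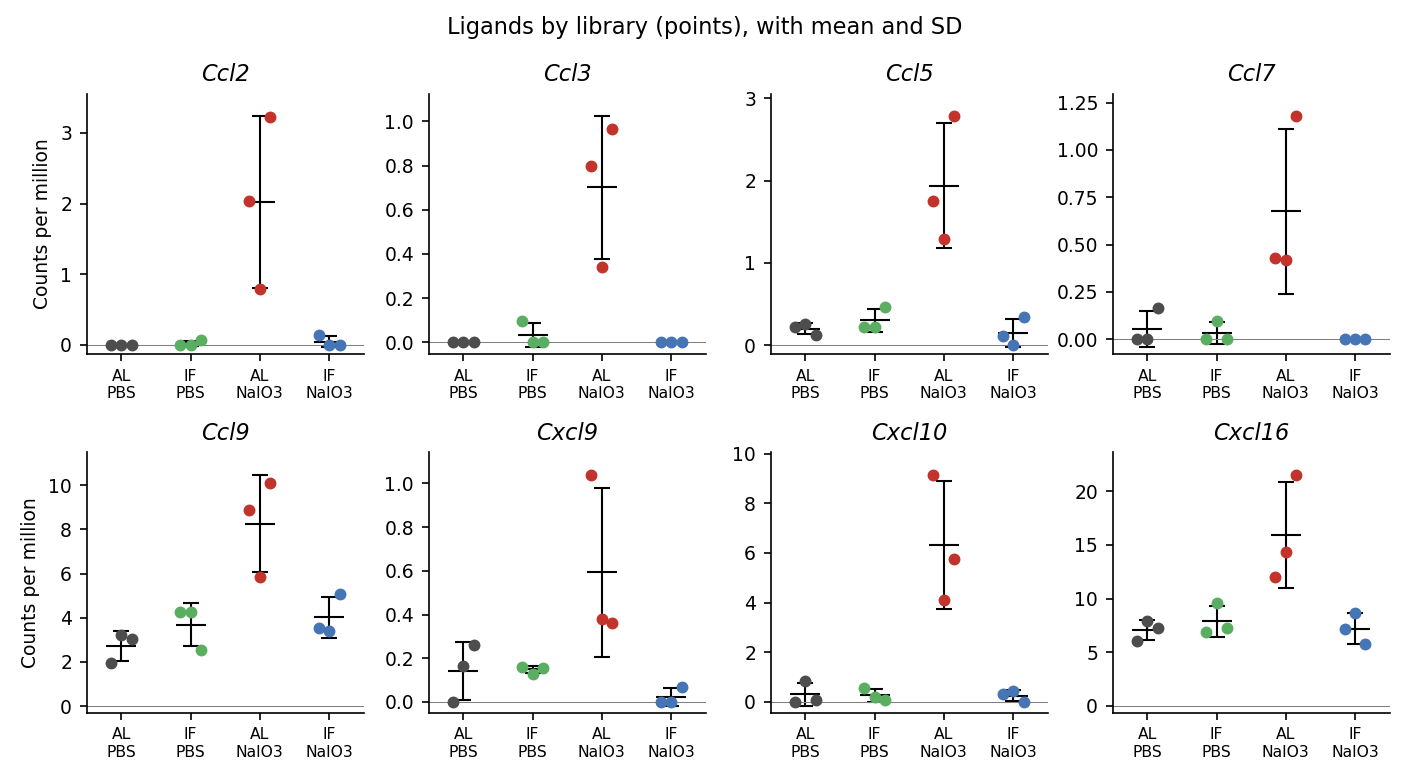
CPM of 8 ligands in each library (points), with the mean and SD of the 3 libraries of a group. The AL + NaIO3 points of Ccl2, Ccl3, Ccl5 and Cxcl10 lie above the points of the other 3 groups.

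The neutrophil-attracting ligands of Cxcr2 were low. Cxcl1 had at most 35 counts, in AL + NaIO3 replicate 3, and Cxcl2 was at 0 in all 6 PBS libraries and had 2, 0 and 10 counts in AL + NaIO3 and 0, 5 and 0 in IF + NaIO3. Cxcl5 had 8, 2 and 60 counts in AL + NaIO3 and 2 to 17 in the other libraries, so that its highest value came from 1 library. Their receptor Cxcr2 had 0, 4 and 23 counts in AL + NaIO3 and at most 4 elsewhere. The summed markers of neutrophils were 4.33, 5.27 and 7.87 CPM in AL + NaIO3, against 1.87 to 2.76 CPM in AL + PBS, 1.78 to 4.0 CPM in IF + PBS and 1.56 to 2.56 CPM in IF + NaIO3, with the defining markers Ly6g and Mpo at or under the floor. Singly the 8 markers were mixed. Without overlap, 1 stood higher in AL + NaIO3 than in AL + PBS (8.97% of all genes) and 1 stood lower (3.55%). In IF + NaIO3, 1 stood lower than in AL + NaIO3 (10.7% of all genes) and 0 stood higher (3.11%).

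Among ligands of lymphoid tissue and dendritic cells, Ccl22, a Ccr4 ligand, had 9, 3 and 24 counts in AL + NaIO3 and 0 to 2 in each other library, a pooled ratio over AL + PBS of 20.6 (95% exact interval 5.29 to 176), or 10.7 (2.38 to 98.5) without AL + NaIO3 replicate 3. Xcl1, the ligand of Xcr1, had 6, 0 and 12 counts in AL + NaIO3. It was at 0 in the other libraries, apart from 3 counts in IF + PBS replicate 3. Cxcl13, the B cell attractant acting on Cxcr5, had 61, 25 and 41 counts in AL + NaIO3 and 9, 39 and 24 in AL + PBS, with an edgeR log2 fold change of 0.98 (SE 0.58, adjusted p = 0.604). Its groups stood apart in CPM but overlapped with TMM scaling. Ccl17 had 13, 19 and 13 counts in AL + PBS and 10, 10 and 8 in AL + NaIO3, a log2 fold change of -0.53 (SE 0.53, edgeR adjusted p = 0.769). Ccl19 and the Ccl21 copies, which guide Ccr7-bearing cells, overlapped between all groups, and the counts of Ccl21a, Ccl21b and Ccl21d are uncertain because these genes are near-identical copies. Ccl27b, which had 5 to 23 counts, is likewise a near copy of Ccl27a.

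The abundant ligands showed smaller differences. Cx3cl1 was at 21.8, 20.1 and 21.7 FPKM in AL + PBS, 21.7, 22.6 and 22.6 in IF + PBS, 17.0, 19.5 and 25.6 in AL + NaIO3 and 16.7, 14.9 and 19.1 in IF + NaIO3. Its edgeR log2 fold change was -0.11 (SE 0.12, adjusted p = 0.791) in AL + NaIO3 against AL + PBS and -0.14 (SE 0.13, adjusted p = 0.691) in IF + NaIO3 against AL + NaIO3. Ccl25 was at 6.82, 5.64 and 7.55 FPKM in AL + PBS, 8.77, 6.34 and 7.58 in IF + PBS, 7.89, 9.89 and 8.04 in AL + NaIO3 and 6.01, 5.89 and 6.30 in IF + NaIO3. The 3 IF + NaIO3 libraries of Ccl25 lay below the 3 of AL + NaIO3, a log2 fold change of -0.40 (SE 0.18, edgeR adjusted p = 0.445).

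Cxcl12 was at 4.43, 4.38 and 4.68 FPKM in AL + PBS, 4.01, 4.14 and 5.13 in IF + PBS, 3.69, 4.13 and 23.1 in AL + NaIO3 and 3.22, 3.59 and 5.70 in IF + NaIO3. AL + NaIO3 replicate 3, the library with the high stroma markers, alone carried the higher mean, and the direction turned without it: the edgeR log2 fold change against AL + PBS was 1.05 (SE 0.67, adjusted p = 0.628) with it and -0.40 (SE 0.15, adjusted p = 0.336) without it. For IF + NaIO3 against AL + NaIO3 it was -1.01 (SE 0.67, adjusted p = 0.581) with it and 0.43 (SE 0.22, adjusted p = 0.628) without it. Ccl27a was at 29.2, 27.8 and 30.7 FPKM in AL + PBS, 40.5, 42.1 and 45.3 in IF + PBS, 25.1, 32.4 and 30.8 in AL + NaIO3 and 41.0, 26.2 and 33.0 in IF + NaIO3. Cxcl14 was at 24.2, 27.3 and 25.1 FPKM in AL + PBS, 32.7, 32.6 and 39.7 in IF + PBS, 26.6, 26.6 and 24.6 in AL + NaIO3 and 30.3, 23.1 and 27.8 in IF + NaIO3. Neither stood apart between AL + NaIO3 and AL + PBS, where both had log2 fold changes within 0.02 of 0, nor between IF + NaIO3 and AL + NaIO3.

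The promoters of 4 ligands that stood apart in both comparisons, Cxcl10, Cxcl9, Ccl9 and Ccl3, are printed from the RefSeq table of GRCm38.p6 as examples of the sequence before the start site, chosen after their values were seen. Ccl22 also stood apart in both and had a window there, not printed, with 0 matches to the 4 motifs named below. Ligands that stood apart in 1 of them and had a window, among them Cxcl1, Cxcl13, Ccl12 and Ccl25, are counted below with it. Cxcl10 is a textbook target of NF-kB and of interferon-regulated factors. Each line gives the 250 bases before the start, 5′ to 3′ on the gene's own strand, which is the minus strand for all 4: Ccl3 chr11:83649379-83649628, Ccl9 chr11:83578637-83578886, Cxcl9 chr5:92328080-92328329 and Cxcl10 chr5:92348890-92349139. Capitals mark a match, on either strand, to 1 of 4 motifs, an NF-kB type (GGGNNNTTCC), an interferon response element type (ISRE, GAAANNGAAA), an interferon-gamma activated type (GAS, TTCNNNGAA) and an AP-1 type (TGANTCA).
Cxcl10: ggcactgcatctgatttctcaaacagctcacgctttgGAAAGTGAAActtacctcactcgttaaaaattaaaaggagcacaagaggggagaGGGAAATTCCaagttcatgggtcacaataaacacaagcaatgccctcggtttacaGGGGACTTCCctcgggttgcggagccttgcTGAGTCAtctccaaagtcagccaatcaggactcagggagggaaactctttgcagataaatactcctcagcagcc
Cxcl9: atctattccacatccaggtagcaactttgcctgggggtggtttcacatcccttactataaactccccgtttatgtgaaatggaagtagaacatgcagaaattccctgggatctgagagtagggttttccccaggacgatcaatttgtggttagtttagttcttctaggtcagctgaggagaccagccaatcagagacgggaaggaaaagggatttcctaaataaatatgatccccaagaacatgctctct
Ccl9: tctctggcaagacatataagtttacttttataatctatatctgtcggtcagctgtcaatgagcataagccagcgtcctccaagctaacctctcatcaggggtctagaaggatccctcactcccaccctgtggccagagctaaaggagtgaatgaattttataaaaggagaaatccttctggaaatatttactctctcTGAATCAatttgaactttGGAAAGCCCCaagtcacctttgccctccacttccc
Ccl3: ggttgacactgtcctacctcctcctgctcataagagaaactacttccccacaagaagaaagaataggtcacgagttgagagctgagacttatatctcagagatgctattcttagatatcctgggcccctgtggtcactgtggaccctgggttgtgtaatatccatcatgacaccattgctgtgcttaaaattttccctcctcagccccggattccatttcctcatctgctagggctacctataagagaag

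The Cxcl10 window held 2 NF-kB type matches, 1 ISRE type match and 1 AP-1 type match, and the Ccl9 window held 1 NF-kB type and 1 AP-1 type match. The Cxcl1 window, not printed, held 3 NF-kB type matches. The Ccl3 window held none of the 4, and that of Cxcl9 had 1 AP-1 type match after the start, outside the printed bases. The 28 ligand genes with a window had 34 windows and the 18 receptors had 19, since some genes have more than 1. Over windows of 300 bases (50 of them after the start), an NF-kB type match was present in 7 of the 34 ligand windows (Ccl1, Ccl9, Ccl20, Cxcl1, Cxcl2, Cxcl3 and Cxcl10) and in 2 of the 19 receptor windows, and in 5.56% of all 32851 windows. The ISRE type was present in 3 ligand windows (Ccl19, Cxcl10 and Cxcl14), in 0 receptor windows and in 3.44% of all windows. An AP-1 type match was present in 7 ligand windows of 6 genes and in 2 receptor windows (7.81% of all windows). A GAS type match was present in 2 ligand windows and 1 receptor window (8.3%). Of 61 member symbols, 46 had a window, and a match is a description of the letters only.

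Among the receptors, Ccr2, on chromosome 9 (chr9:124101950-124113557), marks inflammatory monocytes. Ccr2 had 4, 18 and 27 counts in AL + PBS, 8, 12 and 15 in IF + PBS, 51, 45 and 382 in AL + NaIO3 and 13, 0 and 8 in IF + NaIO3. All 3 AL + NaIO3 libraries were above the 9 others, and replicate 3 was far above its fellows. The edgeR log2 fold change was 3.24 (SE 0.95, adjusted p = 0.320) against AL + PBS and -4.38 (SE 1.16, adjusted p = 0.251) for IF + NaIO3 against AL + NaIO3, with DESeq2 adjusted p-values of 0.00889 and 0.00054. With each library left out in turn they ranged from 1.75 to 3.98 and from -5.08 to -2.90, and were 1.75 and -2.90 without AL + NaIO3 replicate 3.

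Cx3cr1, the fractalkine receptor of microglia and of some monocytes, had 152, 267 and 122 counts in AL + PBS, 129, 117 and 167 in IF + PBS, 292, 237 and 605 in AL + NaIO3 and 143, 210 and 116 in IF + NaIO3. The groups did not overlap in CPM in either comparison. Its edgeR log2 fold changes were 1.17 (SE 0.33, adjusted p = 0.296) and -1.30 (SE 0.33, adjusted p = 0.236), or 0.81 and -0.95 without AL + NaIO3 replicate 3, and DESeq2 gave adjusted p-values of 0.0276 and 0.0104. The Cx3cr1 span overlaps 5 other genes in the annotation, and its level is uncertain to that extent.

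Ccr7, the receptor that guides dendritic cells and naive T cells to lymph nodes, had 8, 6 and 52 counts in AL + NaIO3, 6 counts in IF + PBS replicate 3 and 0 in the other 8 libraries. The level was at least 7.77-fold higher than in AL + PBS (DESeq2 adjusted p = 0.0098) and at least 7.78-fold higher than in IF + NaIO3 (DESeq2 adjusted p = 0.0114). Without AL + NaIO3 replicate 3, which held most of its counts, both bounds were 2.7-fold. It was not tested by edgeR because of its low counts. Cxcr3, the receptor of Cxcl9 and Cxcl10 on activated T cells, had 9, 2 and 25 counts in AL + NaIO3 and 0, 0 and 2 in IF + NaIO3, a pooled ratio of 20.4 (95% exact interval 5.25 to 175), or 9.73 (2.12 to 90.3) without AL + NaIO3 replicate 3. Against AL + PBS, at 0, 8 and 0 counts, its libraries overlapped.

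Cxcr4, the Cxcl12 receptor of many leukocytes and of vascular cells, had 36, 88 and 73 counts in AL + PBS, 34, 22 and 53 in IF + PBS, 87, 65 and 359 in AL + NaIO3 and 51, 73 and 50 in IF + NaIO3. Its AL + NaIO3 libraries stood above AL + PBS by little except for replicate 3, and overlapped with TMM scaling. The edgeR log2 fold changes of 1.40 (SE 0.61, adjusted p = 0.488) and -1.51 (SE 0.57, adjusted p = 0.379) became 0.44 and -0.57 without that library. Ccr1, a receptor of Ccl3, Ccl5 and Ccl9 on myeloid cells, had 8, 2 and 14 counts in AL + PBS, 0, 0 and 4 in IF + PBS, 13, 0 and 98 in AL + NaIO3 and 8, 12 and 0 in IF + NaIO3. Its difference came from replicate 3 alone, since the edgeR log2 fold change of 2.05 (SE 1.38, adjusted p = 0.649) against AL + PBS was -0.21 without it and 2.79 without AL + PBS replicate 3.

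Cxcr6, the Cxcl16 receptor of T cells, had 20, 65 and 44 counts in AL + PBS, 34, 12 and 24 in IF + PBS, 45, 40 and 105 in AL + NaIO3 and 5, 13 and 29 in IF + NaIO3. Its IF + NaIO3 libraries lay below those of AL + NaIO3 (edgeR log2 fold change -1.94, SE 0.72, adjusted p = 0.371, or -2.9 without IF + NaIO3 replicate 3), while AL + NaIO3 and AL + PBS overlapped. Cxcr6 overlaps Fyco1 (28.1 to 55.0 FPKM), which is far more abundant. Ccr9, the Ccl25 receptor, was at 1.45, 1.90 and 2.28 FPKM in AL + PBS, 1.57, 0.537 and 1.08 in IF + PBS, 2.05, 3.13 and 1.78 in AL + NaIO3 and 0.927, 1.27 and 1.74 in IF + NaIO3. The edgeR log2 fold changes were 0.21 (SE 0.30, adjusted p = 0.852) and -0.75 (SE 0.33, adjusted p = 0.427). Ccr9 overlaps Lztfl1 (7.88 to 13.6 FPKM), so that its reads are uncertain. Ccr10, the receptor of Ccl27a and Ccl28, had 22 to 94 counts and Xcr1, a marker of cross-presenting dendritic cells, 14 to 49 counts, and both overlapped between groups.

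**Figure D4:**
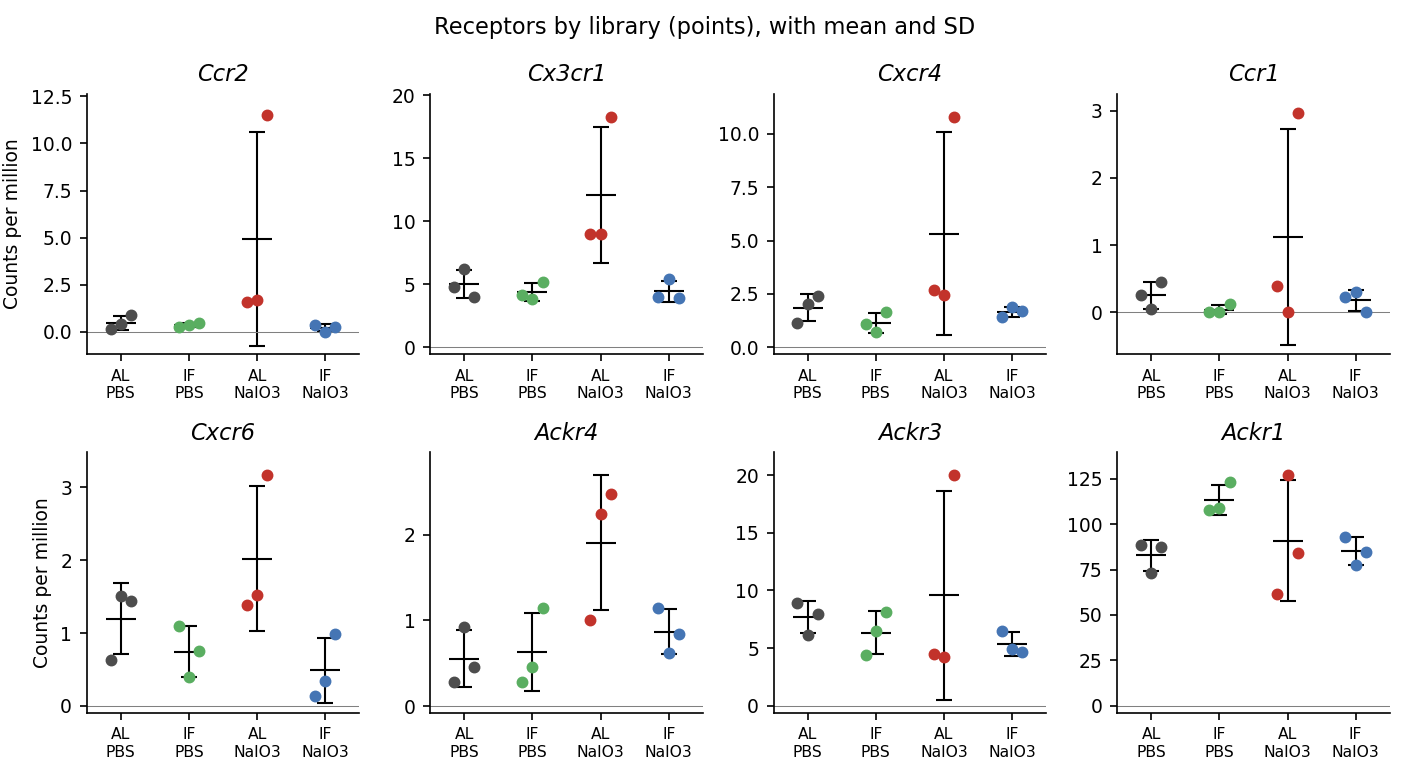
CPM of 8 receptors in each library (points), with the mean and SD of the 3 libraries of a group. The AL + NaIO3 points of Ccr2 and Cx3cr1 lie above those of the other groups, and 1 AL + NaIO3 point, replicate 3, lies far above the other 2 for Ccr2, Cxcr4, Ccr1 and Ackr3.

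The atypical receptors behaved differently from each other. Ackr4, which clears Ccl19, Ccl21 and Ccl25, had 9, 40 and 14 counts in AL + PBS, 9, 14 and 37 in IF + PBS, 33, 59 and 82 in AL + NaIO3 and 41, 24 and 25 in IF + NaIO3. Its AL + NaIO3 libraries were above AL + PBS in CPM (edgeR log2 fold change 1.65, SE 0.57, adjusted p = 0.385, or 2.25 without AL + PBS replicate 2) and overlapped IF + NaIO3 (-0.99, SE 0.49, adjusted p = 0.476). It overlaps Acad11 in the annotation. Ackr3, which scavenges Cxcl12, was at 2.41, 1.69 and 2.15 FPKM in AL + PBS, 1.18, 1.74 and 2.21 in IF + PBS, 1.20, 1.12 and 5.52 in AL + NaIO3 and 1.73, 1.31 and 1.25 in IF + NaIO3. The direction of its difference turned with 1 library: the edgeR log2 fold change against AL + PBS was 0.20 (SE 0.55, adjusted p = 0.934) and -0.84 without AL + NaIO3 replicate 3. Ackr2, a scavenger of inflammatory CC chemokines, had 0, 29 and 13 counts in AL + PBS and at most 12 in the other groups.

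Ackr1 was at 64.4, 52.5 and 62.8 FPKM in AL + PBS, 77.9, 77.8 and 89.5 in IF + PBS, 43.5, 90.6 and 61.6 in AL + NaIO3 and 65.9, 55.4 and 61.1 in IF + NaIO3. The AL + NaIO3 libraries spread on both sides of AL + PBS, with edgeR log2 fold changes of 0.04 (SE 0.22, adjusted p = 0.963) and 0.03 (SE 0.22, adjusted p = 0.965).

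The effect of the diet without NaIO3 was read from IF + PBS against AL + PBS. The edgeR test called 0 of 16 ligands and 0 of 12 receptors, where it called 0.0% of all genes, and 2 ligands and 2 receptors had an unadjusted p under 0.05, as did 17.1% of all genes. DESeq2 called 0 of the 12 ligands and 9 receptors to which it gave an adjusted p, against 1.17% of all genes. Ccl27a, Ccl27b, Cx3cl1 and Cxcl14 among the ligands and Ackr1 among the receptors had all IF + PBS libraries above all AL + PBS libraries in CPM (8.71% of all genes), and Ccl28, a mucosal ligand of Ccr10, had them below in CPM (7.4% of all genes). Cx3cl1 was barely apart, with its lowest IF + PBS library at 84.7 CPM and its highest AL + PBS library at 84.0 CPM, and both Cx3cl1 and Ccl28 overlapped in FPKM. Marker sums also differed without overlap between these groups: stroma markers were at 65.0 to 109 CPM in IF + PBS against 131 to 201 in AL + PBS, cornea and conjunctiva markers at 4.85 to 11.6 against 20.3 to 43.4, skeletal muscle markers at 11.8 to 64.6 against 81.9 to 191, and RPE markers at 1910 to 2480 against 1640 to 1880. Lower in IF + PBS in the same way were endothelial markers (160 to 164 against 182 to 194 CPM), Müller glia markers (3440 to 3550 against 3690 to 4130), photoreceptor markers (45900 to 50100 against 50500 to 53600), erythrocyte markers (28.5 to 37.8 against 42.8 to 59.4) and lens markers (1.67 to 2.08 against 5.27 to 150). Their part in the differences was not tested. Ccl27a was at 40.5, 42.1 and 45.3 FPKM in IF + PBS against 29.2, 27.8 and 30.7 in AL + PBS, 1.47-fold higher in mean CPM (edgeR log2 fold change 0.54, SE 0.10, adjusted p = 0.153). Cxcl14 was 1.39-fold higher (0.46, SE 0.12, adjusted p = 0.175) and Ackr1 1.36-fold higher (0.43, SE 0.10, adjusted p = 0.175). DESeq2 gave these 3 genes adjusted p-values of 0.00277, 0.0238 and 0.0131, with fold changes under the limit of 1.5. Ccr9 was 1.86-fold higher in AL + PBS (edgeR log2 fold change of IF + PBS against AL + PBS -0.91, SE 0.32, adjusted p = 0.219). Without IF + PBS replicate 1 this was -1.32 (SE 0.28, adjusted p = 0.0205), which edgeR called.

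In fasted mice the effect of NaIO3 was read from IF + NaIO3 against IF + PBS. Again edgeR called 0 of 18 ligands and 0 of 11 receptors (0.0% of all genes), with 2 ligands and 1 receptor at an unadjusted p under 0.05 (15.2% of all genes). DESeq2 gave an adjusted p to only 5 ligands and 1 receptor and called 0 of them (0.729% of all genes). No ligand or receptor had all IF + NaIO3 libraries above all IF + PBS libraries, as 5.23% of all genes did. Ccl27a, Ccl28, Cx3cl1, Cxcl9 and Ackr1 had them below in CPM, as did 11.2% of all genes, though Ccl27a and Ccl28 overlapped in FPKM. Marker sums that did not overlap between these groups included RPE (741 to 1660 CPM in IF + NaIO3 against 1910 to 2480 in IF + PBS), stroma (112 to 126 against 65.0 to 109), cornea and conjunctiva (13.8 to 80.3 against 4.85 to 11.6), erythrocytes (46.0 to 63.0 against 28.5 to 37.8) and T cells (1.06 to 1.78 against 1.99 to 2.27), and their part was not tested. Cx3cl1 had an edgeR log2 fold change of -0.32 (SE 0.10, adjusted p = 0.224), Ccl27a of -0.32 (SE 0.13, adjusted p = 0.302) and Ackr1 of -0.35 (SE 0.10, adjusted p = 0.220). Cxcl9 had a pooled ratio of IF + PBS over IF + NaIO3 of 7.76 (95% exact interval 1.78 to 70.4), which rests on few counts.

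Whether the NaIO3 effect itself differed between the diets was tested as an interaction over the 12 libraries. With edgeR 0 of 26 ligands and 0 of 13 receptors passed, against 0.0313% of all genes, and 8 ligands and 3 receptors had an unadjusted p under 0.05 (1910 of all 15970 genes). Sparse genes could again pass the count filter through AL + NaIO3 alone, so that these numbers support nothing. With DESeq2 Ccl5 passed (adjusted p = 0.0352), alone among 31 ligands and 17 receptors, against 1.25% of all genes. The edgeR interaction on the log2 scale was -4.16 (SE 1.18, adjusted p = 0.250) for Ccl5, -1.13 (SE 0.33, adjusted p = 0.261) for Cxcl16 and -1.33 (SE 0.44, adjusted p = 0.309) for Ccl9. For Ccr2 it was -4.00 (SE 1.39, adjusted p = 0.327), or -2.53 without AL + NaIO3 replicate 3. A negative value means that the log2 fold change of NaIO3 against PBS was lower under fasting than ad libitum, whether smaller or of opposite sign.

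The summed markers of leukocytes and endothelium were higher in AL + NaIO3 than in the other groups. The 17 microglia and macrophage markers summed to 284, 214 and 662 CPM in AL + NaIO3, against 95.1 to 104 in AL + PBS, 88.7 to 105 in IF + PBS and 88.7 to 114 in IF + NaIO3, and all 17 were above the floor. The pan-leukocyte gene Ptprc was at 4.21, 5.16 and 24.8 CPM in AL + NaIO3 and between 0.578 and 2.05 CPM in the other groups, and the 7 T cell markers at 4.36, 6.45 and 14.9 CPM against 1.05 to 2.27 CPM. The 4 B cell markers summed to 1.20 to 1.87 CPM in AL + NaIO3 and 0.446 to 1.12 CPM in the other groups. The 5 endothelial markers summed to 208, 239 and 490 CPM in AL + NaIO3 against 147 to 194 CPM elsewhere. For each of these sums the exact two-sided permutation p over 3 against 3 libraries was 0.1 in both comparisons, the smallest it can be. Singly, 16 of 17 microglia and macrophage markers stood higher in AL + NaIO3 than in AL + PBS without overlap (8.97% of all genes). So did 6 of 7 T cell, 1 of 4 B cell and 2 of 5 endothelial markers. In IF + NaIO3, 16, 5, 1 and 1 markers of these lists stood lower than in AL + NaIO3 (10.7% of all genes). In either comparison 0 of them stood the other way. The part of these markers in the chemokine results was not tested.

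**Figure D5:**
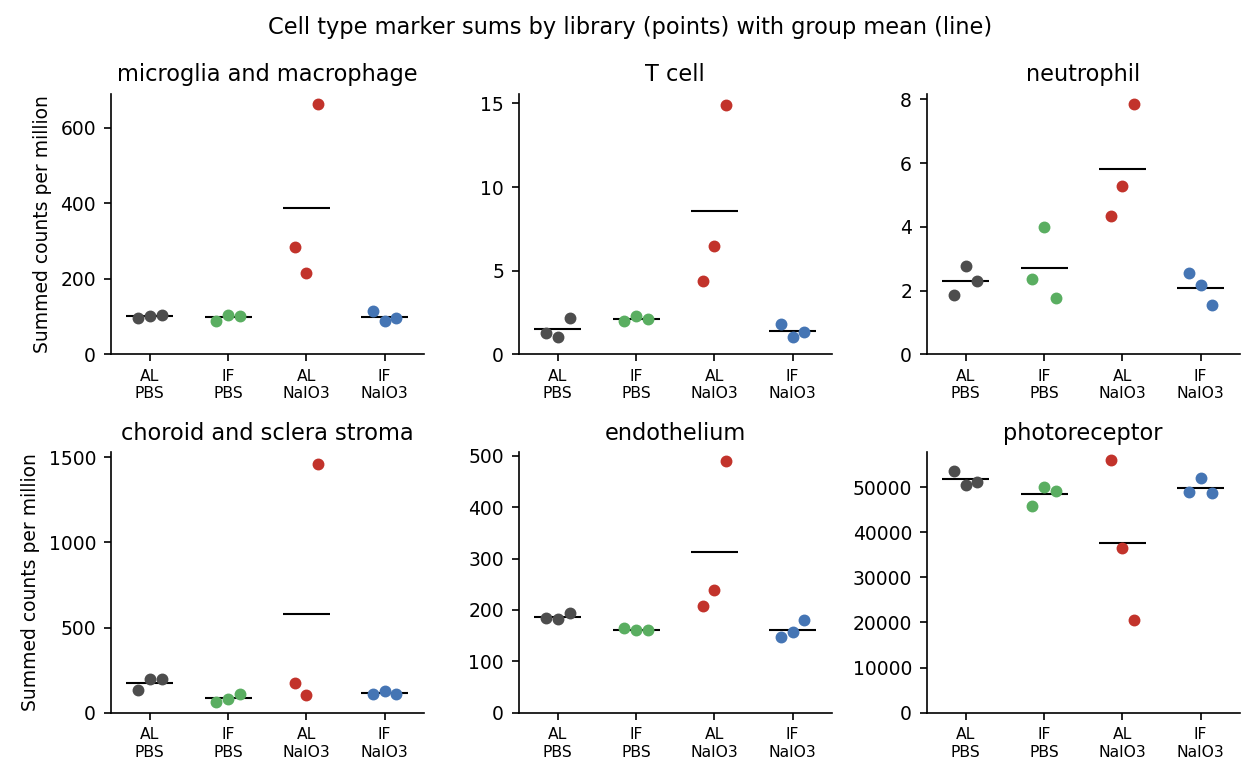
Summed CPM of cell type marker lists in each library (points), with the group mean as a line. The microglia and macrophage, T cell and neutrophil sums of the 3 AL + NaIO3 libraries lie above those of the other 9, and AL + NaIO3 replicate 3 has by far the highest stroma sum, 1460 CPM. Single neutrophil markers did not all go with their sum.

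Other genes of the chemokine system were read from 4 lists. Of 13 leukocyte adhesion genes, which hold cells to endothelium once chemokines have acted, 7 had all AL + NaIO3 libraries above AL + PBS (8.97% of all genes) and 7 had all IF + NaIO3 libraries below AL + NaIO3 (10.7%). Jam2, a junctional adhesion molecule, stood the other way in both comparisons. Vcam1, an endothelial adhesion molecule, had 426, 614 and 331 counts in AL + PBS, 271, 347 and 307 in IF + PBS, 967, 704 and 2720 in AL + NaIO3 and 421, 543 and 420 in IF + NaIO3. Its edgeR log2 fold changes were 1.73 (SE 0.39, adjusted p = 0.242) and -1.64 (SE 0.38, adjusted p = 0.208), or 1.11 (adjusted p = 0.0362) and -1.03 (adjusted p = 0.048) without AL + NaIO3 replicate 3, where both were called. Itgb2, the shared chain of the leukocyte integrins, had 3.34 (SE 0.76, adjusted p = 0.242) and -3.13 (SE 0.69, adjusted p = 0.198), or 2.08 and -1.88 without that library.

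Of 21 inducers of chemokine transcription, 11 stood higher in AL + NaIO3 than in AL + PBS without overlap (8.97% of all genes) and 10 stood lower in IF + NaIO3 than in AL + NaIO3 (10.7%). Tnfaip3, an NF-kB inhibitor, stood lower in AL + NaIO3 than in AL + PBS (3.55% of all genes), with a log2 fold change of -0.87 (SE 0.34, edgeR adjusted p = 0.455). Tlr2, a receptor of microbial and damage signals, had 23, 25 and 17 counts in AL + PBS, 8, 20 and 14 in IF + PBS, 152, 65 and 301 in AL + NaIO3 and 30, 22 and 21 in IF + NaIO3. Its edgeR log2 fold changes were 3.02 (SE 0.52, adjusted p = 0.123) and -2.80 (SE 0.52, adjusted p = 0.153). Irf1, a transcription factor of interferon responses, had 1.22 (SE 0.24, adjusted p = 0.183) and -1.24 (SE 0.25, adjusted p = 0.175). The cytokines Tnf and Ifng were at most at 6 counts in each library, and Il1b had 9, 7 and 26 counts in AL + NaIO3 and at most 8 elsewhere.

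Of 26 genes that signal downstream of chemokine receptors, 11 stood higher in AL + NaIO3 than in AL + PBS (8.97% of all genes) and 14 stood lower in IF + NaIO3 than in AL + NaIO3 (10.7%). Rac2, a GTPase of leukocytes, had log2 fold changes of 2.63 (SE 0.57, edgeR adjusted p = 0.240) and -2.97 (SE 0.58, edgeR adjusted p = 0.168), or 1.82 and -2.18 without AL + NaIO3 replicate 3. Of 14 related molecules outside the naming rule, 2 stood higher in the first comparison and 3 lower in the second, beside the same shares of all genes. Cmklr1, the chemerin receptor, had 2.42 (SE 0.81, adjusted p = 0.365) and -1.91 (SE 0.80, adjusted p = 0.414) in edgeR, or 1.12 and -0.63 without AL + NaIO3 replicate 3. Over the tested genes of the 4 lists in that order (adhesion, inducers, downstream signalling, related molecules), the median log2 fold change was 1.39, 0.57, 0.55 and 0.67 in AL + NaIO3 against AL + PBS, where the median over all genes tested was 0.01. In IF + NaIO3 against AL + NaIO3 it was -1.48, -0.61, -0.51 and -0.65, against -0.01. The edgeR test called 0 genes of these lists in either comparison, and 8 of 10, 10 of 15, 9 of 25 and 2 of 11 tested genes had an unadjusted p under 0.05 in the first comparison, against 10.2% of all genes tested. Sparse genes of these lists may have passed the count filter only through AL + NaIO3, so that these medians and numbers are descriptions.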

How the data were processed

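RNA-seq was read from 12 libraries of 4 groups of 3. The authors deposited raw counts per gene and FPKM per gene; their processing notes name HISAT2, StringTie, DESeq2, edgeR and GRCm39, with versions not given in the sources used here. The deposited coordinates of all 60 chromosome members overlapped the RefSeq genes of GRCm38.p6, and positions are given in that build. A further table holding the authors' fold changes, p-values, counts, FPKM, TPM and group means was not used. Labels describe paired 150-base reads and the methods single-end reads, and in the files genes with 2 counts outnumbered those with 1 by 1.53 to 2.64 times, so that mates may each have been counted.

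Counts were tested in R 4.3.3 with edgeR 4.0.16 (filterByExpr, TMM, quasi-likelihood test), on the 6 libraries of each comparison or on 12 for the interaction. A call needed a Benjamini-Hochberg adjusted p below 0.05 and a fold of at least 1.5 (for the interaction only the former), and the SE was taken as the log2 fold change over the square root of F. DESeq2 1.42.0 was an alternative, as were upper-quartile scaling, other count filters, no fold limit, a 12-library fit, a replicate block and leaving out each library. Sums were compared by exact permutation in Python 3.11.15 with scipy 1.17.1, where 3 against 3 allows no p under 0.1. Promoter windows came from RefSeq. The functions were tested on simulated data.

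Given in every library were members called in any comparison, the 8 ligands and 6 receptors with the lowest unadjusted p in each NaIO3 comparison, the 4 of each kind with the highest FPKM, and Ccl2, Ccl3 and Ccl7. Some others, such as Cxcl12, Ccl4 and Ccl12, were given by library after their values were seen, and the rest by range. 1 receptor that the rule selected is included in counts but is not reported here. The members, marker lists and pathway lists were chosen with earlier results of these data known. The methods describe tubes that held both eye cups of a mouse and samples of n = 3 for RNA-seq, which points to 1 mouse per library, but the labels do not state it; otherwise p-values measure technical spread. Count intervals and floors cover counting error only, and the intervals are too narrow if mates were each counted.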

Additional observations from a re-analysis of the deposited data

How the results depend on the processing

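The number of ligands and receptors called by edgeR was 0 in each comparison under upper-quartile scaling, under no count filter, with at least 10 counts required in each library, and without the fold limit. DESeq2 called 5 ligands and 4 receptors in AL + NaIO3 against AL + PBS, 6 and 4 in IF + NaIO3 against AL + NaIO3, and 1 ligand in the interaction. The 12-library fit called 3 ligands in the first of these and 1 receptor in the second. Leaving out each library in turn gave 0 to 1 receptors in IF + PBS against AL + PBS, where Ccr9 was called without IF + PBS replicate 1, and 0 elsewhere; the cause was not tested.

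With the replicate number as a block, 0 ligands and 0 receptors were called in each comparison. The labels do not say that a number marks a shared batch, same-numbered libraries had deviations correlated between -0.1 and 0.14, and only 7 of 36 cases had a library correlating best with its own number in another group. The block turned the log2 fold changes of Ackr1 (-0.00) and Ackr3 (-0.15) in AL + NaIO3 against AL + PBS.

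The next counts cover only the genes chosen by rule for values in every library, in the 2 comparisons with AL + NaIO3. Of their log2 fold changes, 17 turned direction under an alternative, 471 kept their direction and side of the limit, and 21 passed it. All 21 were in DESeq2 or the 12-library fit. Upper-quartile scaling turned Ccl27a in AL + NaIO3 against AL + PBS (0.02) and Ackr1 in IF + NaIO3 against AL + NaIO3 (-0.02). With each library left out in turn, AL + NaIO3 against AL + PBS ranged from -0.26 to 0.21 for Ackr1, -0.84 to 0.55 for Ackr3, -0.09 to 0.02 for Ccl27a, -0.21 to 2.79 for Ccr1, -0.06 to 0.44 for Ccr9 and -0.10 to 0.11 for Cxcl14. IF + NaIO3 against AL + NaIO3 ranged from -0.13 to 0.34 for Ackr1 and -1.02 to 0.35 for Ackr3. Cxcl12, a member that was not chosen by that rule, also turned in both comparisons, to -0.40 and 0.43 without AL + NaIO3 replicate 3. TMM-scaled CPM and leaving out AL + NaIO3 replicate 3 for the counts of groups that do not overlap, and the folds of sparse genes without that library, were chosen after seeing the data. They gave 11 ligands and 5 receptors (7.59% of all genes) and 13 and 6 (13.2%) higher in AL + NaIO3 than in AL + PBS, and 13 and 7 (8.11%) and 13 and 8 (13.3%) lower in IF + NaIO3 than in AL + NaIO3. The median over all genes moved by 0.12 (log2) in the latter with TMM scaling. At these depths ligands and receptors at or under 3 counts could not be compared.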
